A study of Homo sapiens with 6 samples.

Results

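The glucocorticoid receptor gene NR3C1 and 9 genes known as its targets were followed in HMEC-1 cells, 10 of the 18132 genes that the array measured with probe sets of a single gene symbol. They were read by 43 of 49395 probe sets, short groups of probes that each match a transcript, and were chosen with their differences between the 2 groups already known. Those differences are therefore given as a description, without p-values. HMEC-1 is an established line of human dermal microvascular endothelium, made immortal by a viral oncogene, so all samples come from 1 line. In 3 samples the cells had received EPC-Exos, which the study is known to have prepared as exosomes from endothelial progenitor cells, at 1e+11 particles per mL for 24 hours. In the other 3 they had received PBS in equal volume for 24 hours. Every culture was kept in serum-free MCDB131 medium, the labels name no glucocorticoid, and hormone was not measured.

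The glucocorticoid receptor is a nuclear receptor that waits in the cytoplasm, held by the HSP90 chaperone and its partners, and moves to the nucleus when it binds cortisol. There it binds DNA at paired copies of a short motif and switches on target genes, and it also holds back genes driven by NF-kB and AP-1. In endothelial cells glucocorticoids are known for tightening the barrier and damping inflammation. Several targets, DUSP1, SGK1, CEBPD and ERRFI1 among them, are also induced by growth factors, cytokines or stress. TSC22D3, ZBTB16 and FKBP5 are widely used as readouts of the hormone, which does not make them specific to it.

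After EPC-Exos the targets split. TSC22D3, ZBTB16, FKBP5, CEBPD and KLF9 were lower, CRISPLD2, DUSP1, SGK1 and ERRFI1 were higher, and the receptor gene itself was slightly lower. The differences ran from a 5.14-fold lower signal for TSC22D3 to a 2.08-fold higher signal for CRISPLD2. In limma's fit over 11715 genes, all 10 passed a Benjamini-Hochberg adjusted p of 0.05, 6 lower and 4 higher. Of all genes tested, 49.1% passed, 27.3% lower and 21.7% higher, and since the genes were chosen on this contrast nothing is read from their count. The groups did not overlap in 10 of the 10, against 55.7% of all genes tested. The series' design names a fold of 1.5 and a p of 0.05 without a test, and the p was taken here as unadjusted. At these limits 3 of the 10 were lower, TSC22D3, ZBTB16 and FKBP5, and 1, CRISPLD2, was higher, where 5.96% of all genes tested were lower and 3.94% higher. The NR3C1, KLF9 and ERRFI1 calls did not hold in every setting. All 3 were lost in a test against a fold of 1.2, and further losses are given with NR3C1 and KLF9. The median log2 difference of the 10 was -0.21, beside -0.01 over all genes tested. Since the 10 were chosen on this contrast, nothing is read from their median either.

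On the deposited tables the medians of log2 signal lay between 6.25 and 6.34 on the 6 arrays, and arrays correlated at 0.997 within a group and at 0.988 to 0.989 between groups. The Tag control probe sets, designed against no human gene, averaged at most 4.97, used here as a guide to background. Of 9 endothelial markers, 6 passed the signal filter and 3 of these were higher after EPC-Exos, while CDH5 and TEK lay at or below the Tag controls in both groups and PECAM1 averaged 5.23 with EPC-Exos and 5.18 with PBS. The 3 were ENG, an endothelial receptor of the TGF-beta family, which changed most, at 9.96 with EPC-Exos and 9.16 with PBS, and TIE1 and ESAM. The summed linear signal of all 9 was 1640 to 1714 with EPC-Exos and 1016 to 1203 with PBS. Over all genes tested, 21.7% were called higher and 27.3% lower, and nothing is read from marker counts this small. Of 6 fibroblast and smooth muscle markers, the 4 tested gave 3 lower and 0 higher (0 higher also at an unadjusted p under 0.05), and the summed linear signal of all 6 was 284 to 321 with EPC-Exos and 747 to 828 with PBS. Among them the matrix gene DCN averaged a log2 signal of 5.40 with EPC-Exos and 7.61 with PBS. DCN passed the filter at 5.45 only through its PBS signal. LUM, below the filter at 3.67 with EPC-Exos and 5.97 with PBS, was called lower in the fit without the filter. The leukocyte markers PTPRC, CD14, LYZ and ITGAM lay at or below the Tag controls. CD79A read 6.52 with EPC-Exos and 6.47 with PBS, and CD3E read 5.42 and 5.33, above these controls but not called. The summed linear signal of the 7 leukocyte markers was 530 to 586 with EPC-Exos and 397 to 410 with PBS. Their 1 member called higher was CD68, a lysosomal protein, at 8.47 with EPC-Exos and 7.73 with PBS. Of 3 epithelial markers, KRT8 was called lower, at 9.88 with EPC-Exos and 10.10 with PBS. EPCAM did not pass and CDH1 lay below the Tag controls. The 3 progenitor markers CD34, PROM1 and KIT were below the filter. KIT, at 4.06 with EPC-Exos and 5.00 with PBS, was called lower in the fit without it. The part of these marker changes in the differences given here was not tested, and in bulk RNA fewer cells of a type and less RNA per cell cannot be told apart.

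NR3C1 encodes the receptor. Its probe set with the highest signal gave log2 signals of 9.66, 9.66 and 9.62 in the 3 EPC-Exos samples, against 9.91, 9.68 and 9.93 in the 3 PBS samples. The EPC-Exos samples were all lower, but PBS replicate 2 came within 0.02 of the nearest of them. The group means were 9.65 ± 0.024 with EPC-Exos and 9.84 ± 0.14 with PBS (SD, n = 3 each), a difference of -0.19 ± 0.067 (moderated SE) or 1.14-fold. This call was lost when any single array other than PBS replicate 2 was left out, with differences between -0.15 and -0.20, as well as without probe sets of the shared kind and without the variance trend. All 10 NR3C1 probe sets were lower, by -0.13 to -0.27, and in 8 of them the groups did not overlap. Of all genes tested, 55.7% did not overlap, and the share over all probe sets was not counted. In a fit over all probe sets other than controls, not all 10 passed. Those at -0.13, -0.16 and -0.17 were among the ones that did not. The 10 share transcripts and arrays, so they are not separate evidence, and PBS replicate 2 was the lowest PBS sample in 9 of the 10.

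FKBP5 encodes FKBP51, an HSP90-bound immunophilin that lowers the receptor's affinity for hormone and is itself induced by the receptor, closing a negative feedback loop. Its log2 signal was 10.85, 10.76 and 10.74 with EPC-Exos, against 11.69, 11.61 and 11.67 with PBS. The 2 groups were well apart, with 0.75 between the nearest samples. The difference was -0.87 ± 0.046, a 1.83-fold fall. Of its 6 probe sets, the 5 above background gave -0.79 to -0.93, and the sixth read 3.44 with EPC-Exos and 3.45 with PBS, at background in both.

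TSC22D3 encodes GILZ, a leucine zipper protein that binds NF-kB and AP-1 and carries part of the anti-inflammatory action of glucocorticoids. It had log2 signals of 8.49, 8.84 and 8.55 with EPC-Exos, against 10.88, 11.03 and 11.05 with PBS. Every EPC-Exos sample lay at least 2.04 below every PBS sample. The means were 8.63 ± 0.19 with EPC-Exos and 10.99 ± 0.092 with PBS (SD, n = 3 each), a difference of -2.36 ± 0.079. Only 17 of the 11715 tested genes, TSC22D3 included, fell as far. Its other probe sets gave -2.49 and -1.80, and none of them overlapped between groups.

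ZBTB16 encodes PLZF, a zinc-finger transcriptional repressor that glucocorticoids and progesterone induce in many cell types. Its single probe set read 5.11, 5.22 and 5.05 with EPC-Exos, against 7.07, 7.32 and 7.26 with PBS. The groups lay 1.85 apart at their nearest samples, and the difference was -2.09 ± 0.10, or 4.26-fold. The EPC-Exos mean of 5.13 stood just above the highest Tag control mean of 4.97, so the fold may be compressed. That mean is below the signal filter of 5.45, so ZBTB16 was tested only through its PBS signal. Adding 64 to the linear signals before taking logs gave -1.11.

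KLF9, a Kruppel-like repressor that the receptor induces early, changed little. Its brightest probe set gave 9.92, 9.96 and 9.71 with EPC-Exos, against 10.15, 10.01 and 10.13 with PBS. EPC-Exos replicate 3 was the low sample, and the other EPC-Exos samples lay close under PBS replicate 2. The difference was -0.23 ± 0.068, and without EPC-Exos replicate 3 it was -0.16 and no longer called. It was -0.13 and not called when the gene's 4 probe sets were averaged. The second KLF9 probe set above background differed by -0.14, with overlapping groups, and the remaining 2 were at background.

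CEBPD, a C/EBP transcription factor of the acute-phase response, was lower at all 5 of its probe sets. The brightest read 9.04, 9.22 and 8.74 with EPC-Exos, against 9.45, 9.68 and 9.59 with PBS. The EPC-Exos samples spread widely, with an SD of 0.24 against 0.12 in PBS, yet all were below the lowest PBS sample. The difference was -0.57 ± 0.096. The 5 probe sets gave -0.35 to -0.63, and the value without probe sets of the shared kind was -0.35. EPC-Exos replicate 2 was the highest EPC-Exos sample at all 5 probe sets of CEBPD and at 33 of the 43 probe sets of the 10 genes. The same count was not made over all probe sets of the array, so nothing is read from it. The array median of EPC-Exos replicate 2, 6.31, stood above 6.25 and 6.26 for replicates 1 and 3. A link between the 2 was not tested.

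**Figure D1:**
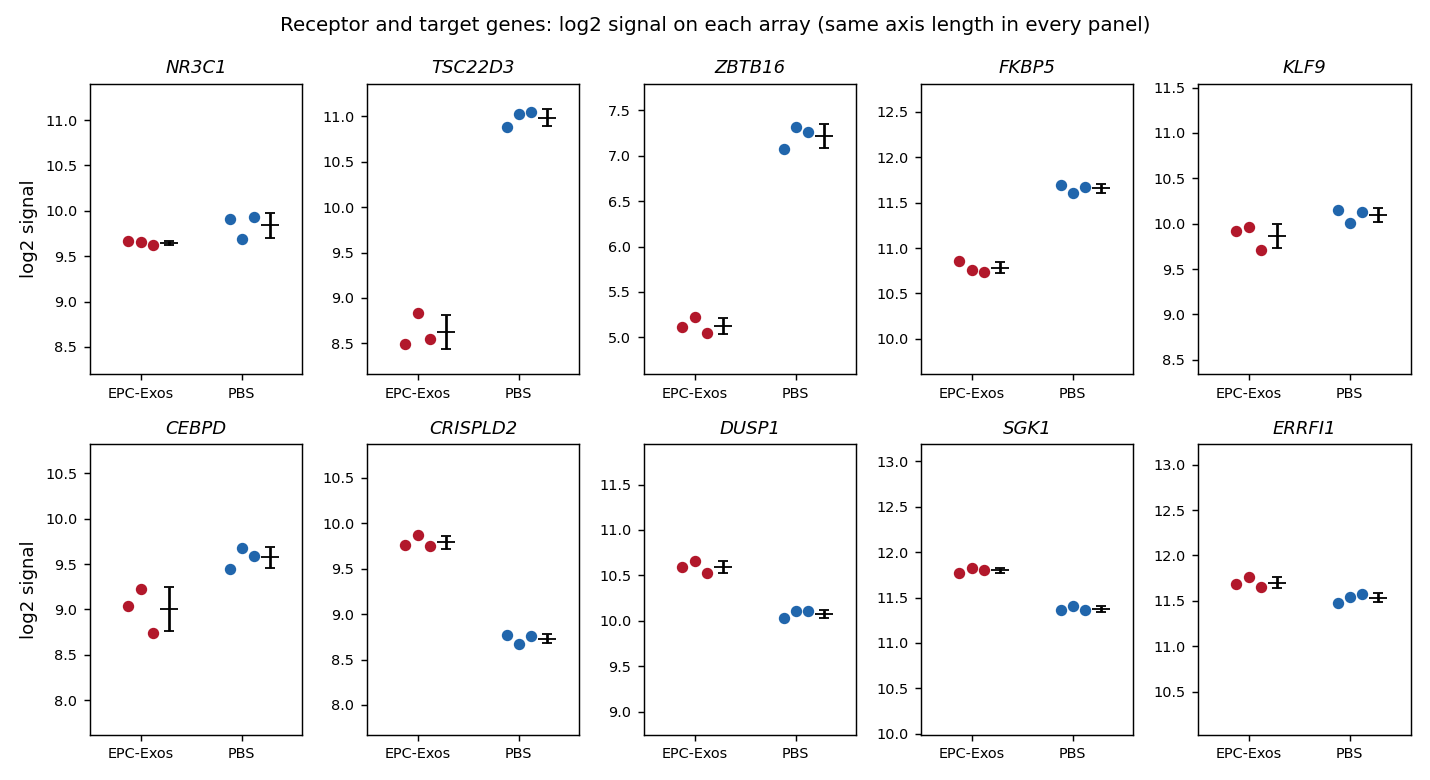
Log2 signal of the receptor gene and the 9 targets on each array, 1 panel per gene with the same axis length, EPC-Exos samples in red and PBS samples in blue, with the mean and SD beside each group. TSC22D3 and ZBTB16 show the widest separation, 2.04 and 1.85 between the nearest samples, while the groups of NR3C1 and KLF9 almost touch.

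Among the genes that rose, CRISPLD2 encodes a secreted protein that binds lipopolysaccharide and is induced by glucocorticoids in airway smooth muscle. Its brightest probe set read 9.76, 9.87 and 9.75 with EPC-Exos, against 8.77, 8.67 and 8.75 with PBS. The groups lay 0.98 apart at the nearest samples, and the difference was 1.06 ± 0.063. Its probe sets did not give 1 size. A dimmer one also gave 1.06, another 0.59, and the remaining 2 gave 0.16 and 0.10 with overlapping groups, so that the mean over the 5 was 0.59.

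DUSP1 encodes the phosphatase MKP-1, which switches off p38 and JNK and is induced both by glucocorticoids and by the stimuli it restrains. Its log2 signal was 10.59, 10.66 and 10.53 with EPC-Exos, against 10.03, 10.10 and 10.10 with PBS. All 3 EPC-Exos samples were higher, and the difference was 0.51 ± 0.053, or 1.43-fold. Its 4 probe sets agreed in size, from 0.49 to 0.58.

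SGK1, a kinase that acts on sodium channels and cell survival and responds to steroids, serum and osmotic stress, read 11.77, 11.82 and 11.81 with EPC-Exos, against 11.36, 11.41 and 11.36 with PBS. The samples within each group were tight, with SDs of 0.030 with EPC-Exos and 0.029 with PBS. The difference was 0.42 ± 0.040, and the 4 probe sets lay between 0.42 and 0.43. ERRFI1 encodes MIG6, a feedback inhibitor of the EGF receptor. Its single probe set, of the kind that can bind related transcripts, read 11.69, 11.77 and 11.65 with EPC-Exos, against 11.48, 11.54 and 11.58 with PBS. The groups lay 0.076 apart at the nearest samples, and the difference of 0.17 ± 0.044 was the smallest of the 10 in size. It was not called in the test against a fold of 1.2.

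Across the 40 probe sets above background, the 26 of the genes that fell were all lower and the 14 of the genes that rose were all higher. Each gene's direction was that of its brightest probe set, which is among the 40, so part of this was fixed in advance. For ZBTB16 and ERRFI1 there is no other probe set. Probe sets of a gene share transcripts and arrays, so the count is not separate evidence. Among single genes, the spread between probe sets was widest for CRISPLD2 and narrowest for SGK1 in the genes with several.

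**Figure D2:**
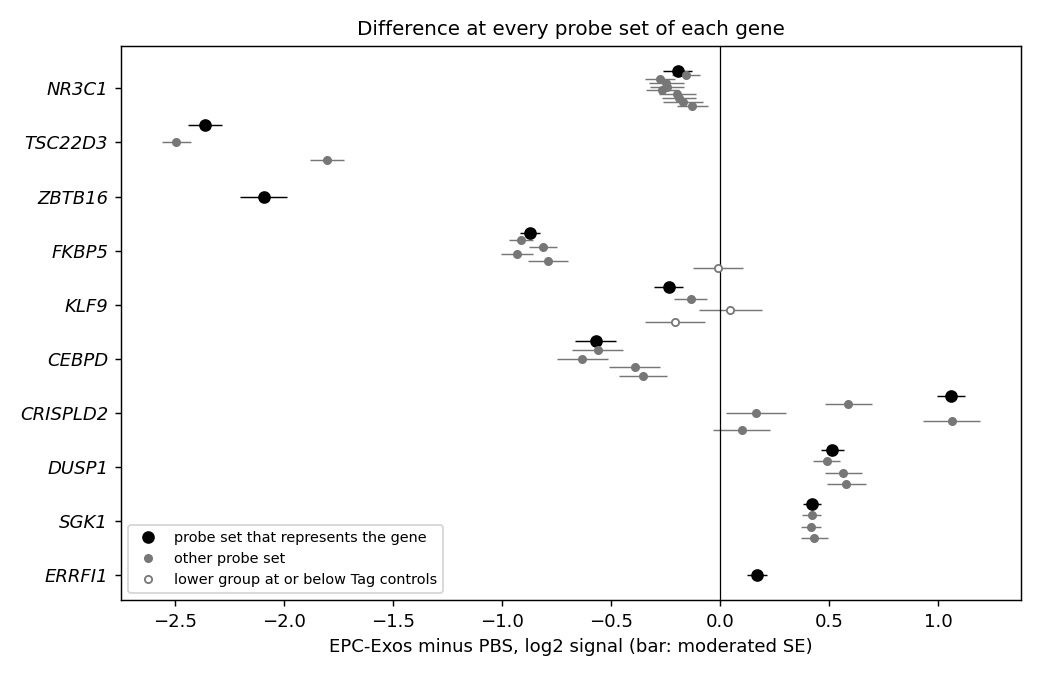
Difference in log2 signal, EPC-Exos minus PBS, at each of the 43 probe sets of the 10 genes, with moderated SE. Filled points above background lie on 1 side of 0 for every gene, CRISPLD2 runs from 0.10 to 1.06, and the open points of FKBP5 and KLF9 are at or below the Tag controls.

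RefSeq promoter windows on GRCh38.p14 were matched for 8 of the 10 genes, 20 annotated starts in all. ZBTB16 and CEBPD, which both fell, had no window, and 7 of the 20 starts belonged to NR3C1. The 250 bases before a start are shown for 1 start each of TSC22D3, which fell, and of DUSP1 and SGK1, which rose, because these windows hold the TATA box letters TATAAA near the start, on either strand. All are on the minus strand and written 5′ to 3′ toward the start, TSC22D3 at chrX:107717063-107717312, DUSP1 at chr5:172771196-172771445 and SGK1 at chr6:134174867-134175116. Capitals mark this match and, in DUSP1, also a cAMP response element. In SGK1 the match is on the strand opposite to the one printed, so its capitals read TTTATA.
TSC22D3: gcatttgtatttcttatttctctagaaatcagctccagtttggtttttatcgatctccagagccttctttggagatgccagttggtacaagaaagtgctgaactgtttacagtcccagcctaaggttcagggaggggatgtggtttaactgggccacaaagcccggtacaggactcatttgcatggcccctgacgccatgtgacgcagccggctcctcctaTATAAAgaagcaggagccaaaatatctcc
DUSP1: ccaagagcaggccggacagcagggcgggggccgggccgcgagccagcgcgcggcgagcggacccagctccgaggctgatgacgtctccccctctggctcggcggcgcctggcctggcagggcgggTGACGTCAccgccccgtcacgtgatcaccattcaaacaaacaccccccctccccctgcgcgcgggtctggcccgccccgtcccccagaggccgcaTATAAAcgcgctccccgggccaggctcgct
SGK1: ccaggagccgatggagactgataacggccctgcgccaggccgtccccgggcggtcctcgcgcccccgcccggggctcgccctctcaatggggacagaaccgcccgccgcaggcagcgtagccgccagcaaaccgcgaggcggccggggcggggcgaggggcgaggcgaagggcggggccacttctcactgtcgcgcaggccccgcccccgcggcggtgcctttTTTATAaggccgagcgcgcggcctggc

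On both strands, the paired receptor motif, AGAACA and TGTTCT in this order with any 3 bases between them, was found in 0 of these 20 windows, and in 0.00285% of 35116 RefSeq windows of the same length. An exact match this rare could hardly be met in 20 windows, and inexact matches were not searched, so nothing is read from this 0. The single core TGTTCT, part of the paired motif, was found in 0 of the 20 and in 12.4% of all windows. The cAMP response element TGACGTCA stood in 1 of the 20, 125 bases before the DUSP1 start, and in 1.65% of all windows. TATAAA stood in 6 of the 20 and in 10.7% of all windows, at 29 bases before the TSC22D3 start, 30 before the DUSP1 start and 27 before the SGK1 start shown. The AP-1 motif TGANTCA was found in 1 of the 20, at an NR3C1 start, and in 6.57% of all windows, and the NF-kB motif GGGANTTTC in 0 of the 20 and in 1.12% of all windows. The GC box GGGCGG stood in 13 of the 20 and in 42.6% of all windows. Windows of neighbouring starts of a gene overlap, these matches are letters and not sites of binding, and more distant enhancers were not searched.

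Other genes that glucocorticoids induce were also split. Of 44 listed, 43 had a probe set, 33 were tested, 16 fell and 9 rose, leaving 8 uncalled. Their median log2 difference was -0.18. Over all 11715 genes 3203 fell and 2545 rose, or 27.3% and 21.7%. The largest changes were a rise of ANGPTL4, a secreted lipase inhibitor that fatty acids and hypoxia also induce (3.22 ± 0.057), a fall of SCNN1A, the alpha chain of the epithelial sodium channel (-2.49 ± 0.10), and a fall of MAOA, which degrades monoamines (-1.33 ± 0.080). SCNN1A read 5.77, 6.10 and 5.68 with EPC-Exos, against 8.36, 8.39 and 8.25 with PBS. Further falls were in the transcription factor FOXO1 (-1.31 ± 0.090), the cyclin-dependent kinase inhibitor CDKN1C (-1.21 ± 0.13) and FBXO32 (-0.95 ± 0.11). Smaller ones were in the thioredoxin-binding TXNIP (-0.85 ± 0.042), KCTD12 (-0.77 ± 0.088), HEXIM1, which restrains transcription elongation (-0.68 ± 0.052), and the clock gene PER1 (-0.52 ± 0.096). Further rises were in EDN1, endothelin 1 (1.01 ± 0.12), NFKBIA, the NF-kB inhibitor (0.97 ± 0.061), and THBD, thrombomodulin (0.69 ± 0.086). Of the 10 genes below the filter, 2 passed in the fit without it, LCN2 and MERTK, both lower.

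Genes that glucocorticoids are known to hold back moved one way where they passed. Of 22 listed, 13 were tested, 9 rose and 0 fell in limma (0 also at an unadjusted p under 0.05), and 4 were not called, where 21.7% of all genes tested were higher and 27.3% lower. Without EPC-Exos replicate 2, 1 of them was called lower. Their median log2 difference was 1.52. Among the rises, IL6, IL1A and ICAM1 averaged 5.09, 5.33 and 5.38 with PBS, below the filter at 5.45. They were tested only through their EPC-Exos signal, so the filter favoured their rise. The chemokine genes CXCL2 (2.62 ± 0.070), CXCL8 (2.56 ± 0.057) and CXCL1 (2.49 ± 0.066) changed most. These inflammatory genes are also direct NF-kB targets, and most were known to be raised in these samples before the list was written. The chemokine gene CCL5 did not pass (0.06 ± 0.14). Of the 8 genes below the filter, 1 passed in the fit without it, the cyclooxygenase gene PTGS2, at 6.43 with EPC-Exos and 3.68 with PBS. The adhesion gene VCAM1 read 4.06 with EPC-Exos and 4.04 with PBS, at background in both.

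Of 18 genes for receptor chaperones and ligand handling, 17 were tested, 9 rose and 3 fell, leaving 5 uncalled, beside 21.7% higher and 27.3% lower over all genes tested. The median log2 difference of the 17 was 0.17. HSD11B1, the enzyme that makes cortisol from cortisone, rose most (1.17 ± 0.15). It read 6.98, 7.41 and 6.63 with EPC-Exos, against 5.72, 5.89 and 5.90 with PBS, so the EPC-Exos samples were all higher but spread widely. H6PD, which supplies the cofactor for that enzyme, fell (-0.41 ± 0.084). HSD11B2, which inactivates cortisol, read 5.45 with EPC-Exos and 5.49 with PBS and did not pass.

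FKBP4 encodes FKBP52, the HSP90-bound immunophilin that competes with FKBP51 and favours receptor activity. It rose while FKBP5 fell, with 10.86, 10.89 and 10.84 with EPC-Exos, against 9.80, 9.83 and 9.74 with PBS, a difference of 1.07 ± 0.050. The cochaperone STIP1, which links HSP70 to HSP90, rose by 0.56 ± 0.056, and both cytosolic HSP90 genes rose, HSP90AA1 by 0.36 ± 0.042 and HSP90AB1 by 0.36 ± 0.032. BAG1, an HSP70 cochaperone that can restrain the receptor, fell (-0.37 ± 0.060).

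Of 17 coregulators, 12 were tested, 4 rose and 2 fell, leaving 6 uncalled, a called share near the 49.1% of all genes tested. The 12 had a median log2 difference of 0.02. The corepressor gene NRIP1 rose (1.09 ± 0.077), the coactivator gene NCOA1 fell (-0.47 ± 0.070), and CARM1, an arginine methyltransferase, rose (0.45 ± 0.060). Of 17 kinases and partner factors, 14 were tested, 4 rose and 3 fell, leaving 7 uncalled, again near 49.1%. The 14 had a median log2 difference of 0.09. JUN, the AP-1 subunit that the receptor antagonises, rose (0.79 ± 0.055), as did CEBPB (0.47 ± 0.067), a close relative of CEBPD, while the ERK1 gene MAPK3 fell (-0.39 ± 0.070).

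Families of the 10 genes held calls in both directions, as did all genes tested, with 21.7% higher and 27.3% lower. Of 26 other nuclear receptors, 18 were tested, 6 rose and 5 fell, leaving 7 uncalled. The median over the 18 was 0.12, with falls in PPARA (-0.91 ± 0.074), NR4A2 (-0.88 ± 0.15) and THRB (-0.59 ± 0.10). Averaging each gene's probe sets left 13 tested and 0 falls called in limma (3 at an unadjusted p under 0.05). The mineralocorticoid receptor gene NR3C2, which binds the same hormone, read 5.65 with EPC-Exos and 5.41 with PBS and did not pass. Of 12 other KLF genes, 11 were tested, 6 rose and 4 fell, leaving 1 uncalled. The median over the 11 was 0.18, with KLF4 (-1.05 ± 0.058), KLF7 (0.71 ± 0.063) and KLF12 (-0.52 ± 0.086) changing most. Without EPC-Exos replicate 1, 2 of the KLF falls were called. Of 10 other dual-specificity phosphatases, 9 were tested, 4 rose and 3 fell, leaving 2 uncalled. The median over the 9 was 0.05, with DUSP9 (0.58 ± 0.12), DUSP6 (-0.38 ± 0.070) and DUSP14 (-0.33 ± 0.064) changing most. Without PBS replicate 2, 2 of the phosphatase rises were called.

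**Figure D3:**
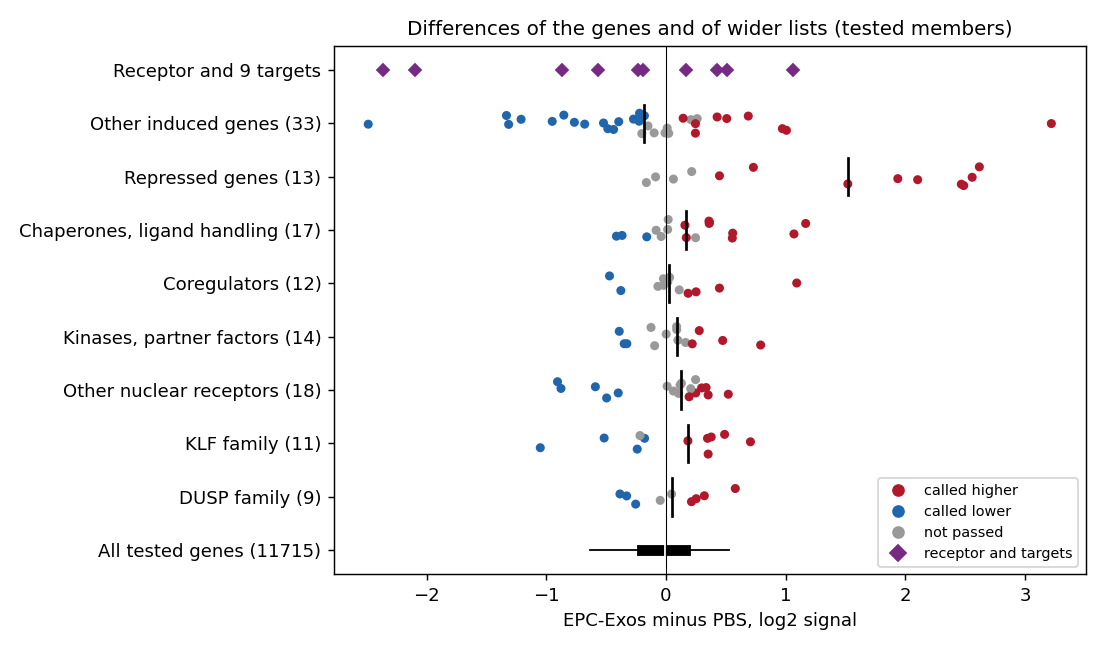
Difference in log2 signal, EPC-Exos minus PBS, for the receptor and its 9 targets (diamonds), for the tested members of 8 wider lists (points coloured by call, black bar at the list median) and for all 11715 tested genes (thick bar, quartiles; thin line, percentiles 5 to 95, -0.64 to 0.53). The list of repressed genes has its median at 1.52, and the other lists lie between -0.18 and 0.18. Most of the repressed genes were known to be raised here before that list was written, and the filter favoured some of their rises. Nothing is read from that median.

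Genes with the most similar profiles were found by the Euclidean distance between log2 values centred on each gene's mean over the 6 arrays. Nearest to TSC22D3 were PAPLN (distance 0.25, difference -2.31 ± 0.089), TP53INP1 (0.27, -2.22 ± 0.075) and SCNN1A (0.28, -2.49 ± 0.10). Nearest to CRISPLD2 were NFKBIZ (0.079, 1.04 ± 0.068), FGF2 (0.088, 1.03 ± 0.067) and IL1R1 (0.094, 1.02 ± 0.073). For NR3C1 they were ITSN2 (0.055, -0.21 ± 0.078), ZNF585A (0.056, -0.17 ± 0.086) and CLHC1 (0.057, -0.18 ± 0.087). With 6 arrays in 2 groups, likeness rests mostly on the size of the group difference.

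**Figure D4:**
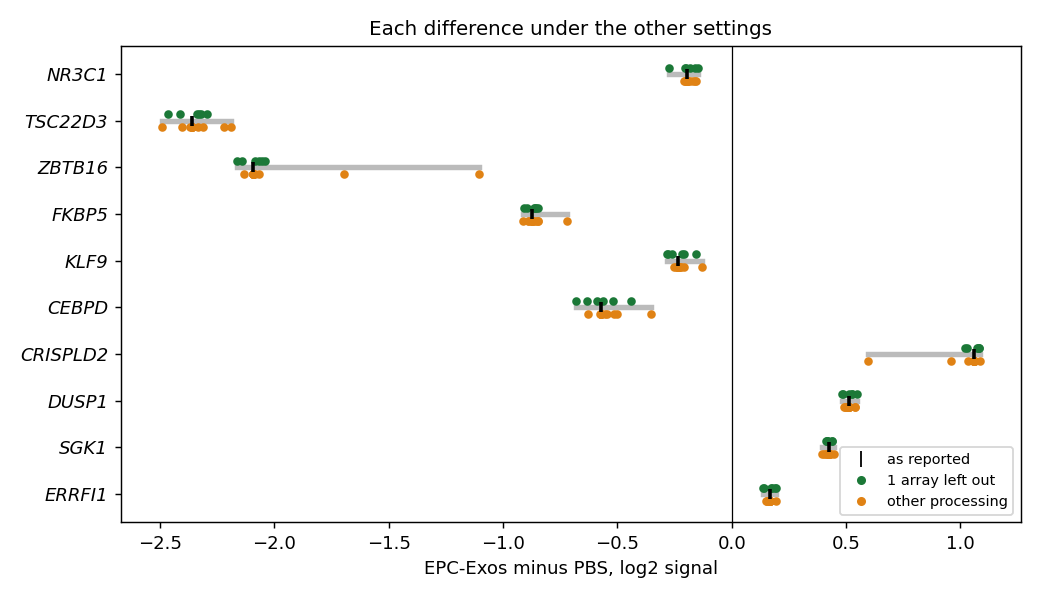
Difference in log2 signal, EPC-Exos minus PBS, of each of the 10 genes as reported (black mark), with 1 array left out (green) and under the other processing settings (orange). No gene crosses 0, ZBTB16 runs from -2.17 to -1.11 and CRISPLD2 from 0.59 to 1.08.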

How the data were processed

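The authors deposited 1 log2 signal per probe set and array. MAS5, Affymetrix's summarisation method, is named without a role in the submitters' processing notes, and further steps are not given in the sources used here. The log2 scale was taken from the values, which ran from 2.47 to 14.52, and the deposited scaling was kept. Scanner files were not used here, and the number of arrays limits the precision. The labels do not say whether replicates are separate cultures, so errors and p-values cover only the variation among these 6 arrays, possibly technical. They give no batch, which cannot be told apart from the groups.

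Probe sets were named from the platform annotation, 44988 with 1 symbol, 1832 with several, 2473 with none and 102 controls. The probe set of highest mean stood for its gene, which was tested where that mean reached the 40th percentile, a log2 signal of 5.45. The group comparison used limma 3.58.1 under R 4.3.3 (variance trend, group as the only term), with Benjamini-Hochberg adjustment over all tested genes and calls at an adjusted p under 0.05. Differences are EPC-Exos minus PBS, two-sided, with limma's moderated SE. The fit was tested on simulated data. Probe sets ending in _s_at or _x_at, called the shared kind, can bind related transcripts.

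The genes, the lists and the tests were chosen with earlier results of these data known. Named genes are the 10, the 3 called members of each wider list with the largest change, and the 3 genes nearest in profile to each of 3 of the 10. Every other gene was named after its values were seen. Alternatives covered scaling, offsets, filters, probe set choice, the variance model, a replicate block and each array left out. The sources compared no steroid, and sequences come from RefSeq, GRCh38.p14.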

Additional observations from a re-analysis of the deposited data

How the results depend on the processing

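The differences of the 10 genes kept their direction under the 17 or 18 alternatives that gave each a value, among single probe sets only KLF9 turned, at 0.047 for a probe set at background, and ZBTB16 was not tested with the filter at the 60th percentile, nor ERRFI1 without shared probe sets. With 1 array left out, 4 to 6 of the 10 were called lower and 4 higher, the calls lost being those of NR3C1 and KLF9. Over all genes, a test against a fold of 1.2 called 773 higher and 1068 lower, against 2545 and 3203 as reported. This test lost the calls of NR3C1, KLF9 and ERRFI1. The fold of 1.5 and p of 0.05 in the series' design, with p taken here as unadjusted, gave 461 higher and 698 lower. Of 288 list counts under alternatives, 279 stayed within 1.5 times the reported count. The others were coregulators called lower (1) and partner factors called higher (2) without shared probe sets, nuclear receptors (0) and KLF genes (2) called lower with averaged probe sets, and phosphatases called higher with the 60th percentile filter (1) or without shared probe sets (2). With 1 array left out, repressed genes called lower ran from 0 to 1, KLF genes called lower from 2 to 4 and phosphatases called higher from 2 to 4. Same-numbered samples correlated at 0.21, 0.20 and 0.085 in their deviations from the group means, each best with its own number, a hint from the data and not the design. With the replicate number as a block, 2724 genes were called higher and 3394 lower, and all 10 genes stayed called. The cause of these shifts was not tested, and signal near the Tag controls limits ZBTB16.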
